A study of Mus musculus with 1016 samples.

Results

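Replication timing (RT) was compared between single cells of mouse 4-cell and 8-cell embryos, 100 of the 733 cells of the series with replication states. All 4-cell cells and all 8-cell cells collected before 72 h were taken, and cells with a replication score, the percent of called bins in the replicated state, of 10 to 90% were kept. This left 55 of 57 cells of the 4-cell stage and 45 of 46 cells of the 8-cell stage. The quality table of the authors failed 5 of these 55 and 7 of these 45 cells, which were kept here. The 2 left-out 4-cell cells had scores of 7.75% and 9.60% against a lowest kept score of 13.7%, and the left-out 8-cell cell had 9.13% against 11.8%. The highest kept scores were 85.01% and 87.5%. Both stages came from untreated embryos of superovulated F1 mothers (C57BL/6J × CBA) mated with DBA/2J males, grown in culture from the zygote and taken apart into blastomeres. The 4-cell cells were collected 50 to 56 h and the 8-cell cells 66 to 69 h after the injection of hCG, the hormone that triggers ovulation. No RNA was measured, so the stage of a cell rests on its label. The labels name neither the embryo nor the litter of a cell, so each stage was handled as 1 pooled sample with no test between stages. Cells of the same embryo may be sisters.

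During S phase the genome is copied from origins that fire in a set order. Regions rich in active genes are usually copied early, and gene-poor regions at the nuclear lamina late. A cell caught in S phase carries extra DNA where it has already replicated, which single-cell Repli-seq reads from its sequencing coverage. By the 4-cell stage the mouse embryo has activated its genome. At the 8-cell stage the blastomeres compact and become polarised, before trophectoderm and inner cell mass separate.

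The replication score had a median of 40.6% at the 4-cell stage (13.7 to 85.01%) and of 48.7% at the 8-cell stage (11.8 to 87.5%). The means were 40.8 ± 16.4% (SD, n = 55 cells) and 50.6 ± 20.7% (SD, n = 45 cells). By collection hour the median ran from 35.3% at 54 h (16 cells) to 70.2% at 53 h (4 cells) among 4-cell embryos. Among 8-cell embryos it ran from 33.1% at 68 h (7 cells) to 56.4% at 69 h (18 cells). The scores of the stages overlapped over almost their whole range, and no order by hour was seen within a stage. The upper part of S phase was sampled unequally: 8 cells of the 4-cell stage and 15 of the 8-cell stage had a score above 60%.

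Several cells stood apart from their stage. The correlation of the states of a cell with the share of the other cells of its stage that had replicated each bin was below 0.3 in 20 of 55 4-cell cells and in 15 of 45 8-cell cells. All 8 of the 4-cell cells with scores above 60% were among them, with r from -0.015 to 0.243, whereas 3 of the 15 8-cell cells with such scores were. The 4-cell values for late S phase therefore rest on 8 cells that correlated weakly with the rest of their stage, while the other 47 had a median r of 0.538. In 1 4-cell cell and 3 8-cell cells nearly every chromosome was in a single state, with 2 to 10 replicated stretches in the genome against at least 215 in every other cell. The quality table of the authors failed all 4. No pair of cells was a copy of another: the most alike pair of 4-cell cells had the same state in 86.8% of bins, and the most alike pair of 8-cell cells in 88.7%. Values without these cells, and from cells with scores of 10 to 60%, are given beside the results they touch.

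**Figure D1:**
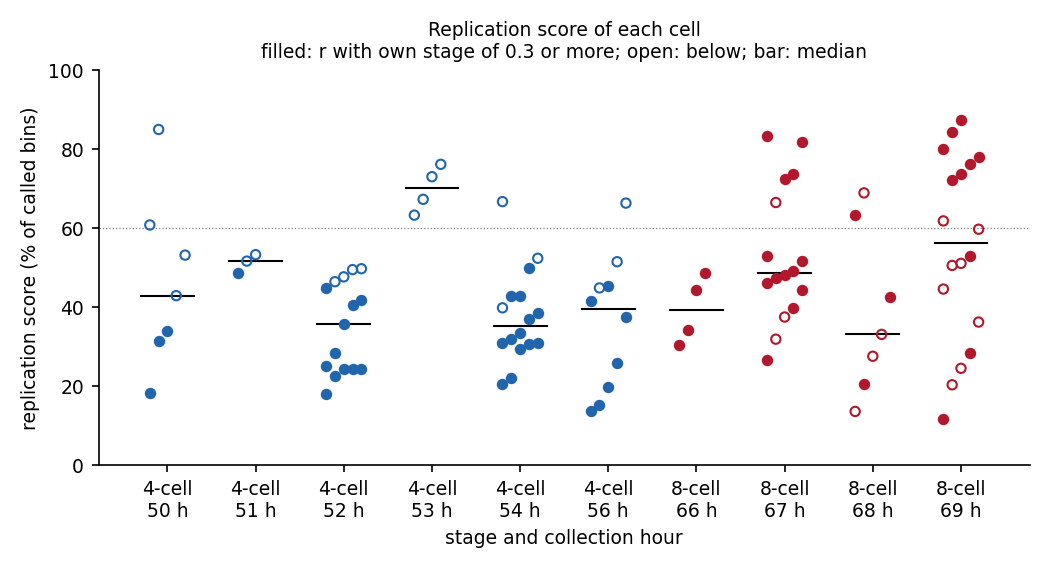
Replication score in percent of called bins for each of the 100 cells, by stage and collection hour, with filled circles for cells that correlated with their own stage at 0.3 or more, open circles for the others and a bar at the median. All 8 circles of the 4-cell stage above the dotted line at 60% are open, against 3 of 15 at the 8-cell stage.

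RT of a bin of 50 kb was the mean, over 16 overlapping intervals of replication score, of the share of cells that had replicated it, so that 1 is earliest and 0 latest. RT had a mean of 0.478 at the 4-cell stage and 0.504 at the 8-cell stage over the 46257 bins measured at both, and the median difference was 0.032. RT was spread more widely at the 8-cell stage, with an SD over bins of 0.212 against 0.175. The SD was larger at the 8-cell stage on 17 of 19 chromosomes. Bins with RT below 0.2 made up 3.92% of the genome at the 4-cell stage against 11.3% at the 8-cell stage, and bins from 0.6 to 0.8 made up 19.4% and 34.8%. The middle class from 0.4 to 0.6 went from 39.9% to 27.95%. In 62.99% of bins RT was farther from 0.5 at the 8-cell stage. The mean variability score, which is 1 where RT is 0.5 and 0 where it is 0 or 1, was 0.713 and 0.637. From cells with scores of 10 to 60%, the variability score was nearly equal, at 0.609 and 0.605, and the SD was 0.202 and 0.219. Without the cells of low correlation as well, the variability score was 0.435 and 0.398 and the SD 0.287 and 0.323. With the 8-cell cells of 72 h added, the SD at the 8-cell stage was above the 4-cell value by 0.0024 instead of 0.038. From the raw share of cells, in which the scores of a stage are not evened out, the variability score was 0.022 higher at the 8-cell stage.

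Neighbouring bins shared their timing over longer stretches at the 8-cell stage. Stretches of early bins (RT of 0.5 or more) numbered 1014 with a median of 0.55 Mb at the 4-cell stage and 645 with a median of 1.2 Mb at the 8-cell stage. Stretches of late bins differed less in length, with 1017 of a median of 0.75 Mb and 645 of a median of 0.9 Mb. Early bins were 40.5% of those measured at the 4-cell stage and 54.8% at the 8-cell stage. The part of this larger early share in the longer early stretches was not tested. Within single cells with scores of 30 to 60%, the mean length of a replicated stretch had a median of 1.55 Mb over 32 4-cell cells (quartiles 1.38 and 1.78 Mb) and of 2.11 Mb over 22 8-cell cells (quartiles 1.56 and 2.33 Mb). The number of replicated stretches had a median of 597 and 514. The interquartile ranges of both measures overlapped. The authors had smoothed the coverage values along the genome with a running median before assigning states, in the same way at both stages, so neighbouring bins are not independent. The states of pairs of cells within 5 points of score and with a mean score of 30 to 60% correlated at a median of 0.150 over 179 4-cell pairs (quartiles 0.054 and 0.289) and of 0.133 over 83 8-cell pairs (quartiles 0.050 and 0.525). The medians of the pairs thus lay close together, and the upper quartile was higher at the 8-cell stage.

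RT was higher at the 8-cell stage by 0.2 or more in 4671 bins, 10.1% of those measured, and lower by as much in 2916 bins, 6.3%. The first group lay in 892 stretches of at most 2.95 Mb and had a mean RT of 0.375 at the 4-cell stage and 0.632 at the 8-cell stage. The second lay in 382 stretches of at most 3.55 Mb, with a mean RT of 0.424 and 0.169. These bins were chosen by the difference itself, so the values describe them only. The 16-cell embryos, which had no part in the choice, had a mean RT of 0.612 in the earlier bins and 0.214 in the later bins, while the 2-cell embryos had 0.479 and 0.473. Bins were early at the 4-cell and late at the 8-cell stage in 3.46% of the genome and the reverse in 17.7%. Centred on the median difference, 6.01% of bins were earlier and 9.31% later, and 14.3% went from late to early and 4.48% from early to late. Without the 8-cell cells of 69 h the later bins were 11.5% of the genome, and without the 4-cell cells of 54 h the bins from early to late were 6.29%. From cells with scores of 10 to 60%, 10.2% of bins were earlier and 3.91% later.

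The difference went with base composition. In the quintile of bins with the least G+C (mean 36.9%), mean RT was 0.365 at the 4-cell stage and 0.255 at the 8-cell stage. In the next quintile it was 0.411 and 0.412, and in the quintile with the most G+C (48.2%) it was 0.570 and 0.657. Later bins were 24.5% of the first group and 0.141% of the last, and earlier bins were 1.12% and 18.8%. In cells with scores of 10 to 60% the difference was -0.042 in the G+C-poorest and 0.051 in the G+C-richest quintile, and without the cells of low correlation it was -0.033 and 0.105. The lowest and the highest quintile thus kept their signs in both sets of cells, and the difference in the G+C-poorest bins was smaller. At scores of 10 to 60% the highest difference, 0.065, was in the quintile below the G+C-richest. In the raw share, centred on the mean difference of all bins, the difference was -0.106 in the G+C-poorest quintile, 0.047 in the 2 quintiles of intermediate to high G+C and 0.014 in the G+C-richest. Over the 1125 windows of 2 Mb, the Spearman correlation between RT and G+C was 0.567 at the 4-cell stage against 0.782 at the 8-cell stage, and between RT and the number of gene starts 0.514 and 0.682. Windows share their cells and their neighbours, and whole-genome amplification can itself follow base composition, whose part in these values was not tested.

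**Figure D2:**
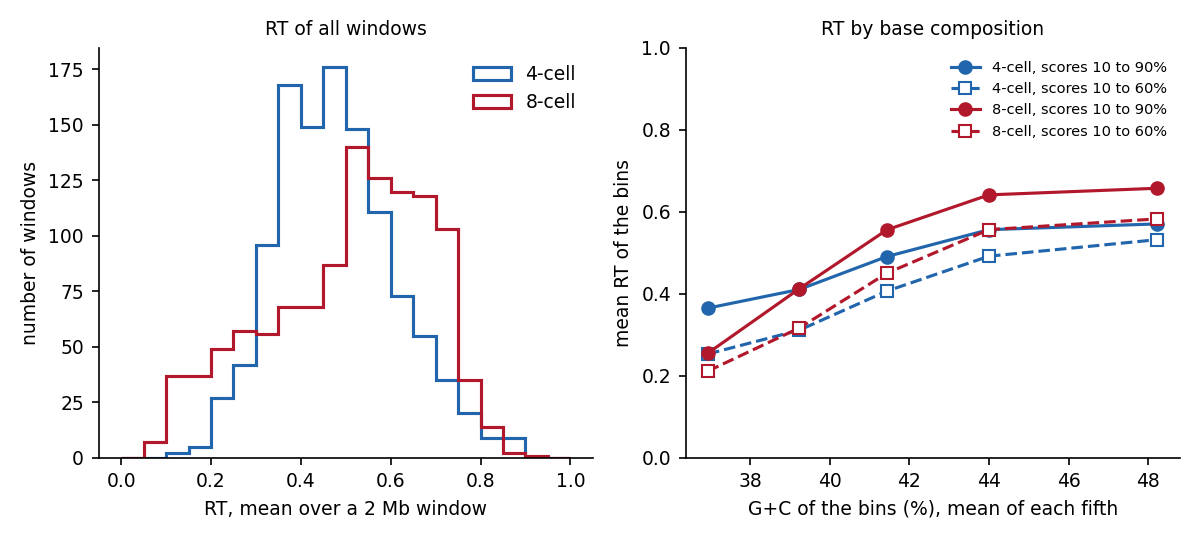
Left, number of 2 Mb windows by mean RT at the 4-cell (blue) and 8-cell stage (red). Right, mean RT of the bins in each quintile of G+C, filled for cells with scores of 10 to 90% and open for 10 to 60%. The 8-cell windows reach lower and pile up above 0.5, and the lines of the stages cross between the quintiles at 36.9% and 41.4% G+C.

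Bins without nearby gene starts were later at the 8-cell stage, and bins with 5 or more were earlier. Bins with no start of a protein-coding gene in their 1 Mb had a mean RT of 0.360 at the 4-cell stage and 0.258 at the 8-cell stage. Those with 1 to 4 gene starts had 0.418 and 0.416. Those with 5 to 14 had 0.523 and 0.603, and those with 15 or more had 0.579 and 0.630. In the centred raw share the bins with 15 or more turned to -0.031, with -0.096 for those without a gene start and 0.048 for 5 to 14. Position on the chromosome also went with the difference. The first 10 Mb, next to the centromere in these one-armed chromosomes, had a mean difference of 0.069, and so did the last 10 Mb before the other end, against 0.019 for the sequence between. Later bins were 0.463% of the first 10 Mb, 2.60% of the last and 6.98% of the rest.

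Bins were also sorted by the RT of stages that the comparison did not use. In the latest quintile of 16-cell RT (mean 0.180), mean RT was 0.324 at the 4-cell stage and 0.207 at the 8-cell stage. In the middle quintile (0.553) it was 0.443 and 0.543, and in the earliest quintile (0.789) 0.680 and 0.735. The 8-cell means lay nearer to those of the 16-cell stage in each of these 3 quintiles, but not in the second latest (0.371), with 0.380 and 0.383. In the centred raw share the earliest quintile differed by -0.0085. Sorted by the RT of 2-cell embryos, the differences were small and nearly even, from 0.015 to 0.037 over the 5 groups. With scores of 10 to 60% the differences by 16-cell RT were -0.043 in the latest, 0.065 in the middle and 0.041 in the earliest quintile.

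By chromosome, mean RT was higher at the 8-cell stage on 14 of 19 chromosomes and lower on 5. The largest differences upwards were on chromosome 13 (0.476 to 0.546), chromosome 11 (0.558 to 0.623) and chromosome 18 (0.471 to 0.530). Chromosome 16 differed most downwards, from 0.510 to 0.448, followed by chromosome 3 (0.454 to 0.427) and chromosome 6 (0.482 to 0.467). Leaving out each collection hour in turn, the difference on chromosome 16 stayed between -0.081 and -0.045 and that on chromosome 13 between 0.047 and 0.079. Without the 4 cells in which nearly every chromosome was in 1 state, chromosomes 3, 6, 12 and 15 were higher rather than lower at the 8-cell stage and chromosome 16 stayed lower, at -0.030. Without all cells that the authors failed, the same chromosomes turned and chromosome 16 was at -0.025. In the raw share all 19 chromosomes were higher at the 8-cell stage, by 0.022 to 0.151. On chromosomes 12 (-0.015 to 0.013), 14 (-0.019 to 0.026) and 15 (-0.032 to 0.019) the sign turned with the hour left out. Chromosome 16 was also the only chromosome on which the hours did not overlap. Its replicated share relative to the score of the cell was -0.014 to 0.079 over the 6 hours of the 4-cell stage and -0.090 to -0.029 over the 4 hours of the 8-cell stage. In cells with scores of 10 to 60% its difference was -0.028, and without those of low correlation it was 0.042. A mean over a chromosome includes cells in which most of that chromosome was in 1 state. Across the 19 chromosomes the differences and the G+C content had a Spearman correlation of 0.639, given as a description of chromosomes that share all cells.

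**Figure D3:**
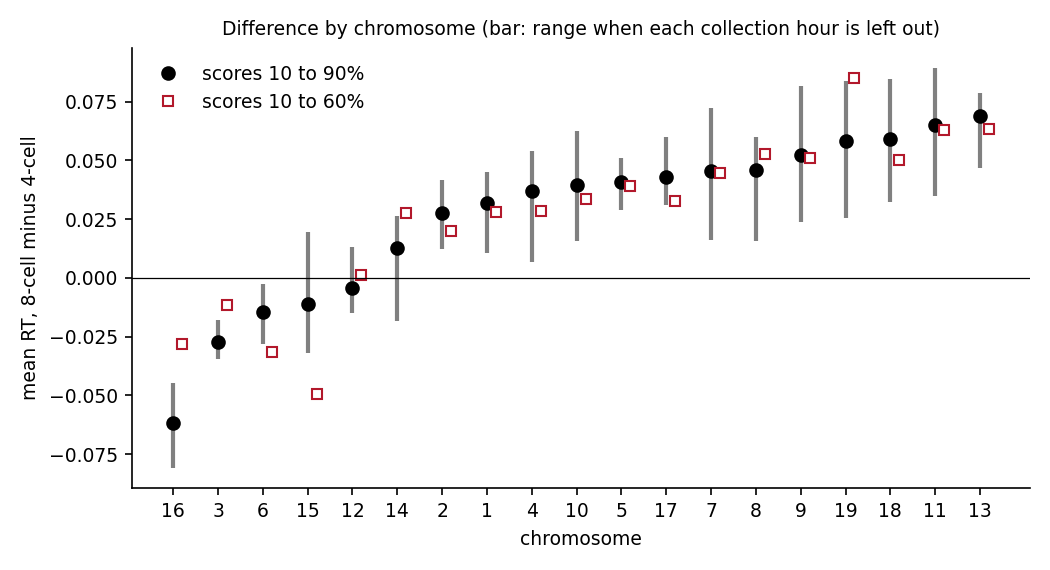
Mean RT at the 8-cell minus the 4-cell stage for each chromosome, in order of size, from cells with scores of 10 to 90% (black, with a bar from the lowest to the highest value when each collection hour is left out) and of 10 to 60% (open squares). Chromosome 16 lies lowest at -0.062 and chromosome 13 highest at 0.069, and the square of chromosome 16 lies above its bar.

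Of the 1125 windows of 2 Mb, 46 (4.09%) were earlier and 42 (3.73%) later at the 8-cell stage by 0.2 or more. The 46 earlier windows lay on 15 chromosomes, with 7 on chromosome 5, 6 on chromosome 4 and 5 on chromosome 13. The 42 later windows lay on 13 chromosomes, with 10 of the 47 windows of chromosome 16 among them, 7 of 75 on chromosome 3 and 6 of 68 on chromosome 6. Median G+C was 45.03% in the earlier and 37.2% in the later windows, beside 41.7% in all. The earlier windows held a median of 7.75 gene starts per Mb and the later windows 0.5, beside 5.5 in all, and 7 of the 42 later windows held none. The median RT of the earlier windows was 0.388 among 4-cell and 0.633 among 8-cell embryos, against 0.398 and 0.169 in the later windows. Both groups thus had much the same RT at the 4-cell stage. Fewer windows were called later without the cells above 60%. From cells with scores of 10 to 60%, 3.73% of windows were earlier and 0.356% later. RT is then a mean over the lower score intervals only, which leaves late windows less room to fall by 0.2. At chr3:72000001-74000000, for example, RT at the 4-cell stage was 0.270 from these cells and 0.449 from all. How far the later calls rest on the cells above 60% themselves was not tested. Without the 8-cell cells of 69 h, 8.18% were earlier and 7.56% later, and without those of 66 h or 67 h the later windows were 2.22% and 2.40%.

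The 5 windows with the largest difference upwards, at least 10 Mb apart on a chromosome, were chosen for that difference and are described without a test. Coordinates are those of GRCm38. At chr17:6000001-8000000, RT was 0.196 at the 4-cell stage and 0.525 at the 8-cell stage, measured in 30 of its 40 bins. The window counted as replicated, with most of its called bins in the replicated state, in 5 of 55 4-cell cells, 9.09% (exact 95% binomial interval 3.02 to 19.95%), and in 24 of 44 8-cell cells, 54.5% (38.8 to 69.6%). These intervals cover counting error only and treat the cells as independent. The counts of cells, here and below, are not evened out for replication score, whose mean was higher at the 8-cell stage. Its mean share replicated was lowest at 0.080, with a median of 0.163 and a highest value of 0.689 over the hours of the 4-cell stage, and ran from 0.381 to 0.789 at the 8-cell stage, so that the hours overlapped through the 3 cells of 51 h. The longest genes there were Tulp4, Rps6ka2, Synj2 and Fndc1. Rps6ka2, a ribosomal S6 kinase, went from 0.102 to 0.484, and Tulp4 from 0.417 to 0.690. Ezr, the gene of ezrin, which ties the actin cytoskeleton to the plasma membrane and marks the apical pole of compacted blastomeres, lies in this window at chr17:6738041-6782784 and went from 0.288 to 0.642.

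At chr18:6000001-8000000, RT was 0.353 and 0.675, and the window was replicated in 15 of 55 4-cell cells (27.3%, interval 16.1 to 40.96%) and 32 of 45 8-cell cells (71.1%, 55.7 to 83.6%). Its longest genes were Mpp7, a scaffold protein of epithelial junctions, Armc4, Arhgap12 and Epc1, and Arhgap12, which encodes a GTPase-activating protein, had the largest difference of them, from 0.336 to 0.803. At chr13:52000001-54000000, RT was 0.372 and 0.667, with 13 of 55 and 30 of 44 cells replicated. It holds Ror2, a Wnt receptor (0.409 and 0.742), Auh (0.409 and 0.721), Syk, a tyrosine kinase of immune signalling (0.336 and 0.650), and Sptlc1, a subunit of the first enzyme of sphingolipid synthesis (0.397 and 0.714). All 4 genes were thus higher by about as much as the window. At chr4:130000001-132000000, RT was 0.389 and 0.671 with 17 of 55 and 30 of 45 cells replicated, and at chr5:112000001-114000000 it was 0.257 and 0.536 with 7 of 55 and 21 of 45. Within the first of these Epb41, Ptpru and Col16a1, which were earlier already at the 4-cell stage than the window as a whole, differed by 0.111, 0.114 and 0.103. Within the second Myo18b, Sez6l, 2900026A02Rik and Grk3 all lay between 0.107 and 0.179 at the 4-cell stage and between 0.448 and 0.488 at the 8-cell stage. In these last 2 windows no hour of the 4-cell stage reached any hour of the 8-cell stage in the share replicated, with values of at most 0.492 against at least 0.532 and of at most 0.375 against at least 0.432. Relative to the score of the cells the hours of all 5 earlier windows overlapped, here with -0.271 to 0.117 against 0.074 to 0.443 on chromosome 4 and -0.354 to -0.064 against -0.077 to 0.474 on chromosome 5. The lowest difference of the 5 windows when an hour was left out was 0.234. From cells with scores of 10 to 60% the differences were 0.212 to 0.289.

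The 5 windows with the largest difference downwards held at most 3 protein-coding genes each. At chr6:74000001-76000000, which holds no protein-coding gene, RT was 0.400 at the 4-cell stage and 0.092 at the 8-cell stage. It was replicated in 16 of 55 4-cell cells (29.1%, interval 17.6 to 42.9%) and 2 of 45 8-cell cells (4.44%, 0.543 to 15.1%). Its mean share ran from 0.147 to 0.613 over the hours of the 4-cell stage and from 0 to 0.136 over those of the 8-cell stage, with no overlap. At chr3:72000001-74000000, RT was 0.449 and 0.144, with 17 of 55 and 4 of 45 cells replicated. Slitrk3, a synaptic adhesion protein, went from 0.471 to 0.147, Sis, the sucrase-isomaltase of the gut, from 0.465 to 0.143, and Bche, butyrylcholinesterase, from 0.429 to 0.224. At chr16:66000001-68000000, RT was 0.414 and 0.113, with 15 of 55 and 5 of 45 cells replicated and hours of 0.197 to 0.775 against 0 to 0.194. Its single protein-coding gene is Cadm2, a neuronal cell adhesion gene almost 1 Mb long, which went from 0.422 to 0.139. At chr12:96000001-98000000, without protein-coding genes, RT was 0.361 and 0.084, with 15 of 54 and 2 of 45 cells replicated. At chr4:66000001-68000000, RT was 0.376 and 0.110, with 13 of 55 and 4 of 45 cells. There Tlr4, a receptor for bacterial lipopolysaccharide, went from 0.404 to 0.076 and Astn2, a protein of migrating neurons, from 0.366 to 0.155. In the windows on chromosomes 3, 12 and 4 the hours of the stages overlapped in the share replicated. Relative to the score of the cells they did not overlap in any of the 5 later windows, with for example -0.249 to 0.156 against -0.437 to -0.296 on chromosome 3. This relative value is the share minus the score, so where little was replicated it mostly follows the score. In the window on chromosome 4, the shares were 0.0275 in 4-cell cells of 56 h and 0.0214 in 8-cell cells of 68 h. The relative values of these hours were -0.334 and -0.364, so the lack of overlap rests in part on the scores.

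The 250 bases before an annotated gene start are printed 5′ to 3′ to show how far gene starts differ in base composition within the named windows. Shown from the earlier windows are Ezr, at chr17:6782781-6783030, Ror2, at chr13:53286125-53286374, and Diras2, at chr13:52530837-52531086. Shown from the later windows are Slitrk3, at chr3:73057067-73057316, Cadm2, at chr16:67620909-67621158, and Astn2, at chr4:66404484-66404733. They were chosen after their sequences were seen, to include starts rich and poor in CG dinucleotides from both kinds of window. All 6 are on the minus strand of GRCm38.p6, from RefSeq, with each CG dinucleotide in capitals. The starts used here are not always those of GENCODE M21, from which the genes of this report are taken. By GENCODE M21, Slitrk3 starts at chr3:73057803, so its printed stretch lies inside the gene. Astn2 starts there at chr4:66404611, so its stretch lies partly inside the gene.
Ezr: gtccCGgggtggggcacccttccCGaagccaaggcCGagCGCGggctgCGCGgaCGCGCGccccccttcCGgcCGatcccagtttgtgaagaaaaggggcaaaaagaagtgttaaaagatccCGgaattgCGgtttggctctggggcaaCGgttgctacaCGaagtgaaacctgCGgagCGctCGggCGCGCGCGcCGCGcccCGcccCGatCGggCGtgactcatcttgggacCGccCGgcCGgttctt
Ror2: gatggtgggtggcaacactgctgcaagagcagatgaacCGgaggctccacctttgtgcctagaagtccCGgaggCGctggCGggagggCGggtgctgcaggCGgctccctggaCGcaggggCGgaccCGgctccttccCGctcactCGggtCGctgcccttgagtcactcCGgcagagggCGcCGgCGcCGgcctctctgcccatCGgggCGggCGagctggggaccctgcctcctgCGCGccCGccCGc
Diras2: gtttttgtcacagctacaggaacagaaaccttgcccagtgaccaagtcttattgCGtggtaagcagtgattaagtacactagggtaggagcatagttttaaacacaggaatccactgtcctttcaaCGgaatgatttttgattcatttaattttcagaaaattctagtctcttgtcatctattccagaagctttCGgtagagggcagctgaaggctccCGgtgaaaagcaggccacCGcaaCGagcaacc
Slitrk3: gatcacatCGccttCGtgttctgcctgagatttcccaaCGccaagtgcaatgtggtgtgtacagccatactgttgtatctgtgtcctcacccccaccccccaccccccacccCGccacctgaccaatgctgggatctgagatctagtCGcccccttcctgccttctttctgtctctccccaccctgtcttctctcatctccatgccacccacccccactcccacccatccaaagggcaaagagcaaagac
Cadm2: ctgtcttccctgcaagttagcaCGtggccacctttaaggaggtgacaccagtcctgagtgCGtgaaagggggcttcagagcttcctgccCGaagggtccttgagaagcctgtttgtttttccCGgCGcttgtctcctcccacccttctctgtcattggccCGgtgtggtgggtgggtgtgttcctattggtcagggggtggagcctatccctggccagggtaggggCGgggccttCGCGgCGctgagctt
Astn2: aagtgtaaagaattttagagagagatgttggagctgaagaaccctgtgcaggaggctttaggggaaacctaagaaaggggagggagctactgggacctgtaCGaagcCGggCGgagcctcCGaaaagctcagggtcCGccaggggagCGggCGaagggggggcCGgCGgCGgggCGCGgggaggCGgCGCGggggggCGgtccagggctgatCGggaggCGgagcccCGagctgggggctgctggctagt
CG dinucleotides, which read the same on both strands, numbered 32 in the stretch printed for Ezr, 24 for Ror2, 6 for Diras2, 5 for Slitrk3, 10 for Cadm2 and 19 for Astn2. The other matched genes of the later windows were Sis with 1 and Bche with 8, and over those of the earlier windows the number ran from 0, before Ttll2, to 43, before Nfil3. Over 15042 genes with a promoter sequence and an RT value, 55.1% held 10 or more and the median was 11. The median was 10 for the 1682 genes whose start lay in an earlier bin and 4 for the 195 in a later bin, of which 35.4% held 10 or more. The gene starts in earlier bins thus resembled all gene starts, and those in later bins had fewer CG dinucleotides.

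The named windows were chosen for their difference in these same cells, so like signs within S phase follow in part from the choice. The earlier windows differed throughout S phase and the later windows differed in its middle and end. Among cells with scores of 10 to 35% (22 of the 4-cell and 12 of the 8-cell stage), all 5 earlier windows had a larger share replicated at the 8-cell stage, by 0.055 to 0.184. In cells with scores of 35 to 60% (25 and 18) they differed by 0.230 to 0.401 and above 60% (8 and 15) by 0.317 to 0.624. The later windows were almost unreplicated at both stages in cells below 35%, with differences of -0.038 to 0.059, of which 4 were above 0. From 35 to 60% all 5 were lower at the 8-cell stage, by -0.313 to -0.170, and above 60% by -0.668 to -0.538. At chr3:72000001-74000000, for example, the mean share replicated was 0.928 in the 8 4-cell cells above 60% and 0.260 in the 15 8-cell cells. With scores of 10 to 60% and without the cells of low correlation (35 and 18 cells), the RT differences of the later windows shrank to between -0.159 and -0.039, while those of the earlier windows were 0.271 to 0.366.

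**Figure D4:**
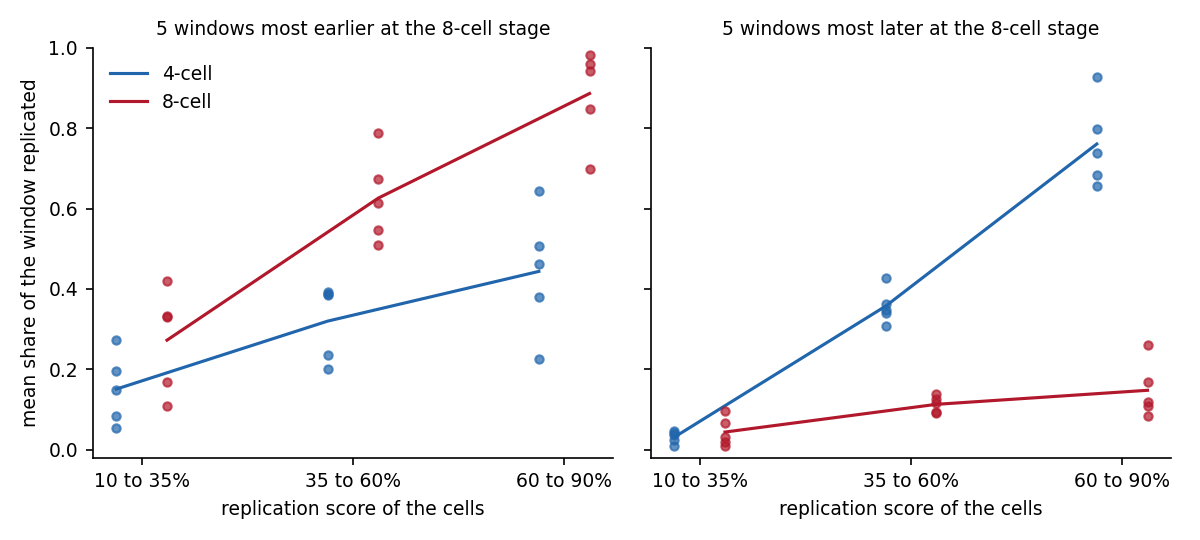
Mean share of a window replicated (0 to 1) in cells of 3 ranges of replication score, for the 5 windows most earlier (left) and most later (right) at the 8-cell stage, with 1 point per window and a line through the mean, 4-cell in blue and 8-cell in red. In the later windows the stages lie together below 35% and part to 0.656 to 0.928 against 0.083 to 0.260 above 60%, where the 4-cell stage has 8 cells.

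RT of a gene was the mean over the bins it overlaps. Over 19845 protein-coding genes the median RT was 0.573 at the 4-cell stage against 0.655 at the 8-cell stage, and the median difference was 0.050. RT was higher by 0.2 or more at the 8-cell stage for 11.3% of genes and lower by as much for 1.18%. Among 25 genes of compaction and polarity, the median was 0.678 and 0.733 and the median difference 0.030. Of these genes 3 were called earlier (12%, beside 11.3% of all genes) and none later. Ctnnb1, the gene of β-catenin, which joins cadherin to the cytoskeleton, went from 0.564 to 0.672. Pard3, the gene of a scaffold of the apical polarity complex at chr8:127063893-127612286, had the largest difference, from 0.384 to 0.738. It was replicated in 17 of 55 4-cell cells (30.9%, interval 19.1 to 44.8%) and in 35 of 45 8-cell cells (77.8%, 62.9 to 88.8%). Cdh1, the gene of E-cadherin, the adhesion molecule of compaction, lay lowest with 0.860 and 0.733, and it was replicated in 49 of 55 and 33 of 45 cells. Pard6b, a partner of Pard3, went from 0.517 to 0.712. Of the 25 genes 16 were higher and 9 lower at the 8-cell stage, beside 13300 higher and 6545 lower of all genes. At scores of 10 to 60% the median difference of the list was -0.031, and without the cells of low correlation 0.031.

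Hippo pathway genes, whose products read polarity and cell contact, had medians of 0.598 and 0.687 over 18 genes. Of these 2 were called earlier (11.1%, beside 11.3% of all genes) and none later. The median difference of the list, 0.053, was close to the 0.050 of all genes. Tead1, a transcription factor bound by Yap1, was the highest, from 0.544 to 0.838, replicated in 25 of 55 and 38 of 45 cells. Yap1 went from 0.486 to 0.682 and Lats1, the kinase that keeps Yap1 out of the nucleus, from 0.419 to 0.586. Tead4, the family member needed for trophectoderm, had 0.546 and 0.564, Nf2 0.782 and 0.809, and Tead2, the lowest, 0.762 and 0.626. Of 24 pluripotency genes 5 were called earlier and none later, with medians of 0.649 and 0.710. Tbx3 was the highest, from 0.362 to 0.614, and Klf4 went from 0.526 to 0.711. Pou5f1 (0.656 and 0.659) differed by 0.003 and Sox2 (0.576 and 0.678) by 0.102. Nanog had 0.802 and 0.720 and Nr5a2, the lowest, 0.874 and 0.754. The share called earlier, 20.8%, stood beside 11.3% of all genes, in a list of 24.

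Trophectoderm genes had a median difference of 0.099 over 18 genes, with 16 higher and 2 lower and 3 called earlier (16.7%, beside 11.3% of all genes). Krt7, a keratin of simple epithelia at chr15:101411043-101430313, went from 0.166 to 0.570. It was replicated in 9 of 55 4-cell cells (16.4%, interval 7.77 to 28.8%) and 26 of 45 8-cell cells (57.8%, 42.2 to 72.3%). Its difference was 0.344 to 0.510 when an hour was left out. Krt8 (0.453 and 0.561), Krt18 (0.505 and 0.561), Gata3 (0.617 and 0.781) and Cdx2 (0.729 and 0.785), the last 2 being transcription factors of the lineage, were all higher by less than 0.2, and Cldn4, a tight junction gene, was the lowest with 0.756 and 0.705. The 18 genes of primitive endoderm had a median difference of 0.087 and none was called. Gata6 had 0.672 and 0.775, Pdgfra 0.637 and 0.731, Gata4 0.801 and 0.800, and Sox17, late at both stages, 0.385 and 0.411. Col4a2 was the highest (0.600 and 0.728) and Ttr the lowest (0.725 and 0.674). No list of the early lineages had a gene called later, beside 1.18% of all genes, a share that leaves less than 1 gene in lists of this size.

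**Figure D5:**
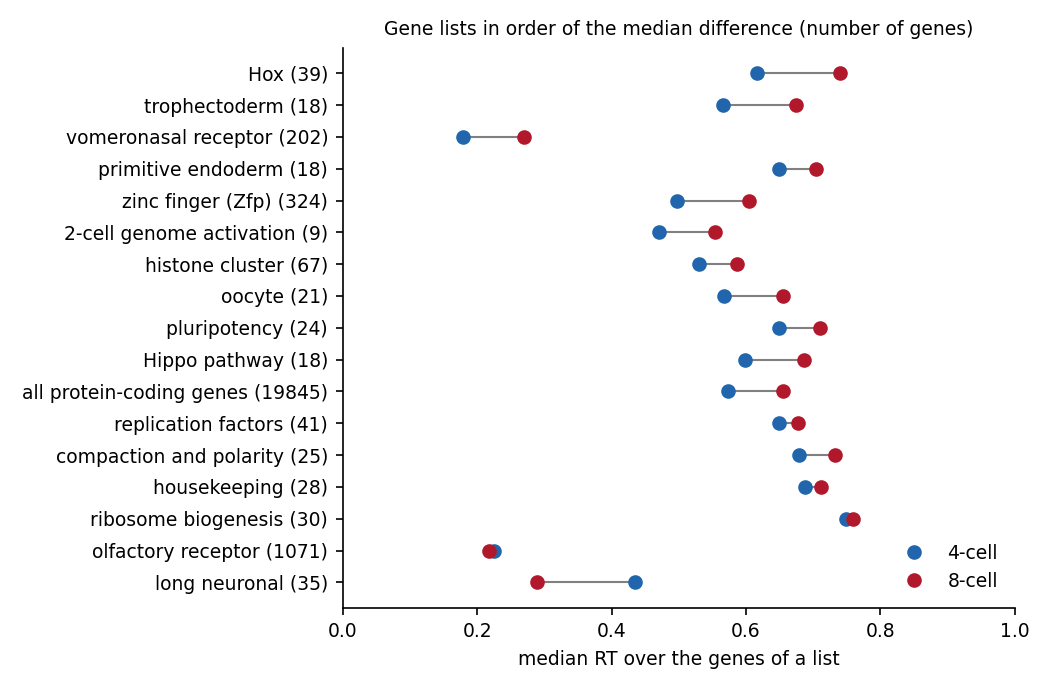
Median RT (0 to 1) of the genes of each list at the 4-cell (blue) and 8-cell stage (red), in order of the median difference, with the number of genes measured in brackets. The long neuronal genes lie at 0.436 and 0.290, the olfactory receptor genes at 0.225 and 0.218, and every other list farther to the right at the 8-cell stage.

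Lists of genes that most cells use were early at both stages. The 30 genes of ribosome biogenesis had medians of 0.749 and 0.759, with 2 called earlier (6.67%, beside 11.3% of all genes) and none later. Npm1 had 0.845 and 0.847, Ncl 0.872 and 0.806, Fbl 0.623 and 0.563 and Polr1a 0.766 and 0.767. Nop16 was the highest (0.536 and 0.740) and Bop1 the lowest (0.731 and 0.561). The 28 housekeeping genes had medians of 0.687 and 0.712, again with 2 called earlier (7.14%). Actb had 0.702 and 0.743, Gapdh 0.656 and 0.601, Ppia 0.787 and 0.736 and Tbp 0.691 and 0.723, and the extremes were Ldha (0.567 and 0.805) and Rpl13a (0.762 and 0.612). The median difference of both lists was below that of all genes, and that of the housekeeping list was -0.048 at scores of 10 to 60% and -0.012 without the cells of low correlation. In the raw share relative to all genes, the medians were -0.067 for ribosome biogenesis, -0.084 for housekeeping, -0.090 for compaction and polarity and -0.109 for the long neuronal genes, so the first 3 lists lay below all genes there too. Of 41 replication factors 31 were higher and 10 lower, with 5 called earlier (12.2%), beside 13300 higher and 6545 lower of all genes and 11.3% called earlier. The median of 0.048 was close to that of all genes. Gins2, a subunit of the replicative helicase, went from 0.284 to 0.600, and Mcm2, another, from 0.502 to 0.645. Mcm4 was the lowest (0.698 and 0.502), and Pcna (0.793 and 0.733), Orc1 (0.897 and 0.829) and Cdc6 (0.696 and 0.721) differed by less than 0.1.

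The 21 oocyte genes had a median difference of 0.059, with Zar1 alone called earlier (0.452 and 0.714). That is 4.76% of the list, beside 11.3% of all genes. Gdf9, a growth factor of the oocyte, was the lowest with 0.906 and 0.775, Mos had 0.506 and 0.565 and Zp3 0.700 and 0.704. Of 20 genes of genome activation at the 2-cell stage, 9 had an RT value. Spz1 was the highest (0.524 and 0.710), Arg2 the lowest (0.904 and 0.798) and Zfp352 had 0.336 and 0.359. None of the 9 was called, beside 11.3% of all genes called earlier and 1.18% later, so that few calls would fall in a list this short.

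Genes of a cluster share bins, so that the members of the following lists are not separate observations. The 39 Hox genes, which pattern the body axis and lie in 5 stretches of 1 Mb, had medians of 0.616 and 0.740, and 34 were higher at the 8-cell stage, none by 0.2. The shares called below are read beside 11.3% of all genes called earlier and 1.18% called later. Hoxc12 was the lowest (0.660 and 0.606). The 67 genes of histone clusters had 0.529 and 0.587, with 3 called earlier (4.48%), among them Hist4h4 (0.321 and 0.602), and Hist1h2ai the lowest (0.589 and 0.571). At scores of 10 to 60% their median difference was 0.00031, and without the cells of low correlation it was 0.177. Zinc finger (Zfp) genes, 324 in 161 stretches of 1 Mb, had 0.497 and 0.604, with 53 called earlier (16.4%) and 3 later (0.926%), from Zfp563 (0.268 and 0.646) to Zfp251 (0.827 and 0.609). Olfactory receptor genes, silent in embryos, were late at both stages. The 1071 measured had medians of 0.225 and 0.218, with 90 called earlier (8.40%) and 29 later (2.71%), from Olfr370 (0.335 and 0.735) to Olfr1199 (0.337 and 0.069). The median difference per gene was 0.005, with 572 higher and 499 lower, so the lower median at the 8-cell stage was no fall of most genes. The 202 vomeronasal receptor genes had 0.179 and 0.269, with 18 called earlier (8.91%) and none later, from Vmn1r180 (0.284 and 0.573) to Vmn2r102 (0.235 and 0.052).

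The long neuronal genes were mostly lower at the 8-cell stage. Their median RT was 0.436 at the 4-cell stage and 0.290 at the 8-cell stage, 32 of 35 were lower, and 10 (28.6%, beside 1.18% of all genes) were called later and none earlier. Later bins were 21.8% of bins with no gene start in their 1 Mb and 10.1% of those with 1 to 4. In the G+C-poorest quintile of bins they were 24.5%. Whether the list differs from other sequence of like composition was not tested. Pcdh9, a protocadherin at chr14:93013410-93890679, fell by 0.30, from 0.457 to 0.156, replicated in 20 of 55 4-cell cells (36.4%, interval 23.8 to 50.4%) and 7 of 45 8-cell cells (15.6%, 6.49 to 29.5%). Robo2, an axon guidance receptor at chr16:73891839-74411825, went from 0.469 to 0.219, with 18 of 55 and 7 of 45 cells replicated. Ctnna2, the α-catenin of neurons, went from 0.469 to 0.246 and Lrp1b, a large lipoprotein receptor, from 0.450 to 0.250. Csmd1 had 0.375 and 0.377, and Dab1, which acts in neuronal positioning, was the highest with 0.311 and 0.448. The intervals of the shares of Pcdh9 and Robo2 overlapped between the stages. They treat the cells as independent and are no test between the stages. From cells with scores of 10 to 60% the median difference of the list was -0.076, beside 0.018 for all genes, and without the cells of low correlation -0.038 beside 0.047. In the 2-cell embryos the median RT of these genes was 0.503, and in the 16-cell embryos 0.279.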

How the data were processed

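The authors deposited for each cell a replication state, 1 (replicated), 0 (not replicated) or missing, over 49264 bins, each 50 kb long, of chromosomes 1 to 19 of mm10 (GRCm38). Bowtie2 2.3.5, SAMtools 1.9 and bedtools 2.29.0 are named in the processing notes. Per the methods, the authors divided each bin by its mean over the stage, masked outlier bins, smoothed, segmented and split the values into 2 states, without G1 or G2 control cells. Copy number gains or losses common to a whole stage are therefore not visible, and the 8-cell scaling included the cells of 72 h. The states of the stages were deposited separately, and whether they were processed together is not stated. A difference in processing between them could not be told apart from stage. Read depth per cell is not analysed here.

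Replication score, raw share and RT were computed as in the methods (16 score intervals, 35 points wide), in Python 3.11.15 with NumPy 2.4.6, pandas 2.3.3 and SciPy 1.17.1, after tests on simulated data. Windows of 2 Mb needed 30 of 40 bins. Cells without a called bin in a window were left out there. A difference of 0.2 counts as earlier or later. Genes are the protein-coding genes of GENCODE M21. Each stage is 1 pooled sample, so no test was made: intervals are exact (Clopper-Pearson), and values without each collection hour show the spread. Named windows are the 5 highest and 5 lowest with up to 4 of their longest genes. Named genes are the highest and lowest of each list and, for lists not made by a name pattern, the first 4. Members and lists were chosen with earlier results of these data known. Myh9, Nlrp5 and 11 genes of genome activation had no value. Of the genes this rule picks, 2 are not reported here. Of the alternatives, 3 were chosen after seeing the data: scores of 10 to 60%, the same without cells of low correlation, and no cells in which nearly every chromosome was in 1 state.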

Additional observations from a re-analysis of the deposited data

How the results depend on the processing

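Each share below is a percent of bins or windows. The main values were a difference in SD of 0.0379, a difference in variability of -0.0755, 10.1% of bins earlier, 6.3% later, 3.46% from early to late and 17.7% from late to early, and 4.09% of windows earlier and 3.73% later. From the raw share of cells, bins were 23.9% earlier, 0.733% later and 0.167% from early to late, windows 15.3% and 0.0889%, and the variability difference turned to 0.0221. Without the cells the authors failed, later windows were 2.49%. With 72 h included, later bins were 3.18% and windows 1.78% earlier and 0.800% later. With scores of 25 to 75%, bins from early to late were 5.28%. With intervals 20 points wide they were 5.75%, and windows 1.96% earlier and 6.31% later. A threshold of 0.1 gave 31.1% earlier and 18.8% later bins, and 0.3 gave 1.75% and 0.943%. Centring on the median gave 6.01% earlier bins, and windows of 1 Mb 6.70% earlier. Of the alternatives chosen after seeing the data, scores of 10 to 60% gave a variability difference of -0.00459, 3.91% later bins and 0.356% later windows. Leaving out the cells of low correlation as well gave bins of 16.1% earlier, 3.37% later and 1.21% from early to late, and windows of 8.98% and 0.267%. In cells scoring 10 to 35% alone, the raw share of the later windows was higher at the 8-cell stage, by 0.00739 on chromosome 3, 0.0258 on chromosome 16, 0.00966 on chromosome 12 and 0.0595 on chromosome 4. The cause of these moves was not tested.

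Leaving out each collection hour, the SD difference was 0.0206 to 0.0720, the variability difference -0.145 to -0.0361, bins 9% to 14.5% earlier, 5.31% to 11.5% later, 3.03% to 6.29% from early to late and 16.4% to 19.1% from late to early, and windows 3.56% to 8.18% earlier and 2.22% to 7.56% later. A limit to bins called in 80% of cells left every value identical and so tested nothing, and no limit on the score kept every direction. No paired analysis was possible because each cell belongs to 1 stage and no label ties cells of the stages to each other. With 8 4-cell cells above 60%, late S phase is the thinnest part of the comparison.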

Other observations

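The 11 8-cell cells collected at 72 h, which are outside the comparison, had RT values of their own in the 10 named windows. In the 5 windows that were later at the 8-cell stage, their RT was 0.565 on chromosome 6, 0.532 on chromosome 3, 0.439 on chromosome 16, 0.453 on chromosome 12 and 0.425 on chromosome 4. Each of these lay above the 4-cell value of its window, 0.361 to 0.449, while the 8-cell cells of 66 to 69 h had 0.084 to 0.144. In the 5 earlier windows it was 0.110 on chromosome 17, 0.435 on chromosome 18, 0.184 on chromosome 13, 0.127 on chromosome 4 and 0.140 on chromosome 5, below the 4-cell value of the window on all but chromosome 18, which had 0.353 at the 4-cell stage.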
